A study of Mus musculus with 8 samples.

Results

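The crystallin genes measured in the retina were the alpha, beta and gamma-S crystallins, chosen by their names, namely Cryaa, Cryab, Cryba1, Cryba2, Cryba4, Crybb1, Crybb2, Crybb3 and Crygs. They made up 9 of the 17500 genes with counts. Whole retinas were taken from 4 Rbfox2-/- mice, labelled Rbfox2 KD, which were numbered M893, M901, M902 and M909. The 4 controls were M833, M894, M896 and M898. The RNA was sequenced after poly(A) selection, with 1 library per mouse. All mice were 6 months old and on a C57BL/6J background. Per the study's methods, Rbfox2-/- mice were Rbfox2 fl/fl and carried a tamoxifen-activated Cre that is not restricted to 1 retinal cell type, and tamoxifen was given at about 2 months of age. The age-matched controls were heterozygous Rbfox2 fl/+, so both groups carried a floxed allele. The labels name tamoxifen for every mouse, whereas the methods do not say that the controls received it. Rbfox2 encodes an RNA-binding protein that regulates splicing.

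Crystallins are the abundant soluble proteins of the eye lens. The alpha crystallins, alpha A and alpha B, are small heat shock proteins that act as chaperones and keep damaged proteins in solution, and alpha B is also made in many other tissues, retina included. The beta and gamma crystallins form a second superfamily of structural proteins with a shared fold, of which gamma S is the main gamma crystallin of the adult lens. Factors of the Maf family bind lens crystallin promoters at Maf response elements, and Pax6 and Sox2 act with them. Several crystallins other than alpha B have also been described in the retina, at lower levels than in the lens.

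The genes lie on 6 chromosomes of GRCm38, and 4 of them lie on chromosome 5. Cryba4 (112246493 to 112252518, minus strand) and Crybb1 (112255815 to 112269585, plus strand) point away from each other with 3296 bases between them. Crybb2 (113058258 to 113070117) and Crybb3 (113075839 to 113081584) lie on the minus strand, 5721 bases apart. Cryaa lies on chromosome 17 from 31677807 to 31681733, and 273 of its exon bases are shared with an antisense transcript on the other strand. Cryab lies on chromosome 9 from 50751325 to 50756636, and 252 of its exon bases are shared with Hspb2, a small heat shock gene on the opposite strand. Strand use in the counting was not stated, so reads in these shared bases cannot be told apart. Cryba1 (chromosome 11, 77718615 to 77725283), Cryba2 (chromosome 1, 74889934 to 74893143) and Crygs (chromosome 16, 22805203 to 22811577) shared no exon bases with another annotated gene.

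Of the 9 genes, 8 had a promoter sequence in RefSeq (GRCm38.p6), searched on both strands from 250 bases before to 50 bases after the start site. The exception was Cryab, so the motif counts below say nothing about its promoter. The Maf half-site TGCTGA was found in 7 of the 8, against 19.5% of all 32544 promoters of 300 bases. The heat shock element GAANNTTC was found in 0 of the 8, against 7.89% of all promoters, and TATAAA in 4 of the 8, against 13.6%. The 250 bases before the start site are shown for 4 genes whose counts are contrasted below, with the Maf half-site (TGCTGA, or TCAGCA where it is on the other strand) in capitals. Cryaa and Cryba4 varied widely between mice, and Crybb1 and Crybb3 did not.
Cryaa (chr17:31677681-31677930, plus strand): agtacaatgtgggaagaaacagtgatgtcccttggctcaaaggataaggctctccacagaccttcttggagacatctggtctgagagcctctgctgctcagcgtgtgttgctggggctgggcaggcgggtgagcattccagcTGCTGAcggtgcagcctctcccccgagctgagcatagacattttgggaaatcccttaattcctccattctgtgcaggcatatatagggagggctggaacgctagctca
Cryba4 (chr5:112252519-112252768, minus strand): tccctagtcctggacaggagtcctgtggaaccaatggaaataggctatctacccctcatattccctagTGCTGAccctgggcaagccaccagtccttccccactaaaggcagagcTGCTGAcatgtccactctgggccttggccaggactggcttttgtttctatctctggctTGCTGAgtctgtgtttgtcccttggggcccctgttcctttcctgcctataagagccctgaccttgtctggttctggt
Crybb1 (chr5:112255570-112255819, plus strand): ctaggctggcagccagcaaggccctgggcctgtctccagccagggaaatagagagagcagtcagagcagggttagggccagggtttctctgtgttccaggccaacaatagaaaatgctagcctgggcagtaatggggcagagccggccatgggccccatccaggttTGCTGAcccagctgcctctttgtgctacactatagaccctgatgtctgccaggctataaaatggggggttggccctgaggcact
Crybb3 (chr5:113081585-113081834, minus strand): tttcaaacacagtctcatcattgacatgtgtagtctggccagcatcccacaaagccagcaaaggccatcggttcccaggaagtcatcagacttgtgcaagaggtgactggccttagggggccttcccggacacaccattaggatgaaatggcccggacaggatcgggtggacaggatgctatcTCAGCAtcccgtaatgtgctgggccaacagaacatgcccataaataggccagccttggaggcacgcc
In Cryba4 the half-site occurred at 182, 135 and 77 bases before the start, and in Crybb1 once, at 84 bases before it. The letters are a description of these windows and were not tested as binding sites.

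Each mouse had 160630226 to 211283591 counts in genes, and all 9 crystallin genes were among the 16797 genes that passed the count filter. Levels are given as raw counts, as CPM (counts scaled to a common library size after TMM normalization), or as the deposited FPKM, which is also scaled by gene length and is used to compare genes. A count of 3, taken as the floor, corresponds to between 0.0144 and 0.0189 CPM, and this limit reflects counting error alone. Rbfox2, the targeted gene, had 53.6 to 59.4 CPM in Rbfox2-/- retinas and 143.8 to 156.8 CPM in controls, with a log2 fold change of -1.41 (SE 0.046, edgeR adjusted p 5.51e-07), so that each library went with its label. Rod genes, the markers of the main retinal cell type, summed to between 69700 and 78810 CPM in every library. The libraries differed in genes of neighbouring tissue. The summed level of 7 pigment cell genes was highest in controls M898 (372.7 CPM) and M894 (165.4 CPM) and lowest in M901 (10.8 CPM) and M902 (15.5 CPM). The sum of 7 ocular surface epithelium genes was 107 CPM in M909 and 1.73 to 9.23 CPM in the other 7 mice. In bulk RNA, fewer cells of a type and less RNA per cell cannot be told apart.

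Cryab was by far the most abundant crystallin of the retina. Its deposited FPKM was 35.1 ± 4.58 (SD, n = 8 mice), and it made up 84.6% to 94.5% of the summed crystallin FPKM of each mouse. The mean FPKM of the others was 0.755 for Crybb3, 0.751 for Crybb1, 0.729 for Crybb2, 0.452 for Cryaa, 0.190 for Cryba2, 0.176 for Cryba1, 0.157 for Cryba4 and 0.130 for Crygs. The order below Cryab was not tested within mice, and the SD over mice was 0.640 for Crybb2 and 0.521 for Cryaa. Cryaa had a higher FPKM than Cryba2 in every mouse, from 0.101 against 0.0954 in M894 to 1.56 against 0.382 in M893. The summed FPKM of the 8 genes other than Cryab was 6.45 in M893 and 5.12 in M896, and 2.09 to 3.11 in the other 6 mice.

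No crystallin gene passed the test between Rbfox2-/- and control retinas. Each FDR below is a Benjamini-Hochberg adjusted p over all genes, from the quasi-likelihood test of edgeR unless another tool is named. It was under 0.05 for 0 of the 9 genes and for 0.0655% of all genes tested. At an unadjusted p under 0.05 there were also 0 of 9, against 13.3% of all genes, and DESeq2 gave 1 of 9 (Cryab) at that level and 0 at an FDR under 0.05 among the 5 genes for which it gave an adjusted p. DESeq2 gave none for Cryba1, Cryba2, Cryba4 and Crygs. The groups overlapped for all 9 genes, whereas 7.03% of all genes tested did not overlap. The median log2 fold change of Rbfox2-/- against control was -0.05 over the 9 genes and 0.0016 over all genes.

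**Figure D1:**
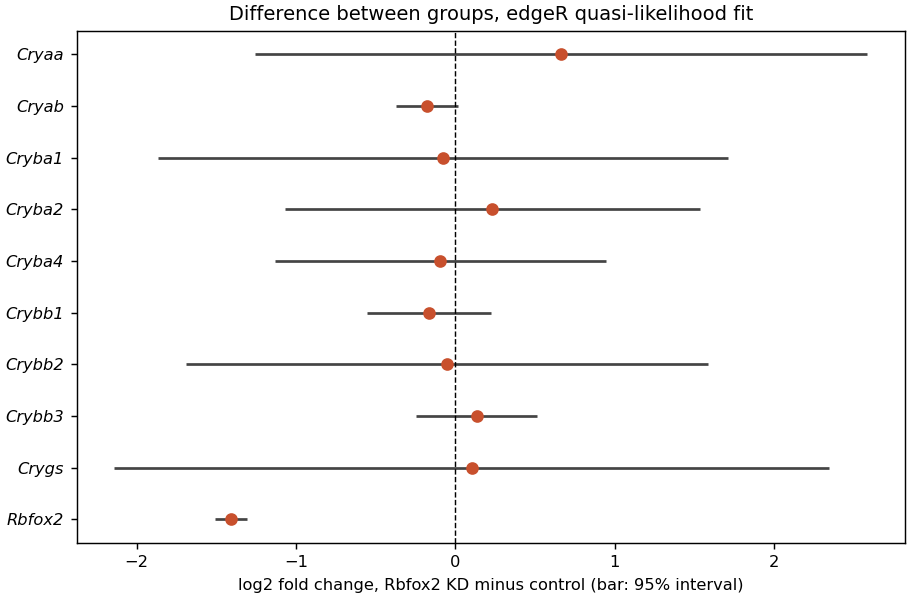
Log2 fold change of Rbfox2-/- (Rbfox2 KD) against control retinas for the 9 crystallin genes and Rbfox2, with points for the fitted value and bars for its 95% interval (4 mice per group). The bars of Cryab, Crybb1 and Crybb3 are short and include 0, those of the other 6 crystallins are wide and include 0, and that of Rbfox2 lies wholly below 0.

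For Cryab, the alpha crystallin chaperone, the counts were 7612 in M833, 7298 in M894, 7524 in M896 and 8659 in M898 among controls, and 6905, 6344, 5843 and 7223 in M893, M901, M902 and M909. Relative to library size, M898 was the highest with 48.9 CPM and M901 the lowest with 32.9 CPM, while M893, M902 and M909 overlapped with the controls, whose lowest value was 36.6 CPM in M833. The mean was 36.7 ± 2.69 CPM (SD, n = 4) in Rbfox2-/- and 41.5 ± 5.28 CPM (SD, n = 4) in control retinas. The log2 fold change was -0.18 (SE 0.087, 95% interval -0.37 to 0.02, edgeR FDR 0.407), so that a level from 0.772 to 1.01 times that of controls was compatible with the data. Without M898 the log2 fold change was -0.09. M898 and M894, the 2 mice with the most Cryab, were also the 2 with the highest sum of pigment cell genes, and M901 had the least of both. The summed level of 11 Muller glia genes was 7258 to 8194 CPM in control and 6470 to 7340 CPM in Rbfox2-/- retinas, and 0 of the 11 had an edgeR FDR under 0.05. Of these 11, 3 had an unadjusted p under 0.05, all lower in Rbfox2-/-, against 13.3% of all genes in both directions. DESeq2, which called 465 genes in all, called 1 of the 11 (Glul, adjusted p 0.0107). The part of these other cells in the Cryab values was not tested.

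Crybb1 and Crybb3, both beta crystallins, had low counts that varied little between mice. Crybb1 had 146, 107, 119 and 149 counts in controls M833, M894, M896 and M898, and 108, 110, 119 and 103 counts in M893, M901, M902 and M909. Crybb3 had 102, 118, 109 and 81 counts in the same controls, and 101, 111, 91 and 129 counts in the Rbfox2-/- mice. The highest CPM was 1.57 times the lowest for Crybb1 and 1.47 times for Crybb3. The log2 fold change was -0.17 for Crybb1 (SE 0.18, 95% interval -0.56 to 0.23, edgeR FDR 0.725) and 0.13 for Crybb3 (SE 0.17, 95% interval -0.25 to 0.52, edgeR FDR 0.776). The biological coefficient of variation between mice estimated by edgeR was 18.6% and 17.8%, below the trend of 26.5% and 27.1% for genes of like abundance.

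The other 6 crystallins varied widely between mice of the same genotype. Cryaa, the alpha crystallin of the lens, had 325, 86, 27 and 35 counts in M893, M901, M902 and M909, against 49 in M833, 21 in M894, 210 in M896 and 38 in M898. Thus 1 mouse of each group, M893 and M896, was far above the other 6, and the groups overlapped. Crybb2, a major beta crystallin of the adult lens, had 252, 44, 47 and 22 counts in M893, M901, M902 and M909, and 133, 32, 183 and 64 counts in M833, M894, M896 and M898. Here control M833 lay between the pair of high mice and the rest.

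Cryba1, the gene of the beta A1 and A3 proteins, had 46, 11, 19 and 6 counts in M893, M901, M902 and M909, and 21, 4, 61 and 8 counts in M833, M894, M896 and M898. Cryba2 had 48, 33, 9 and 17 counts in the same Rbfox2-/- mice, and 15, 12, 53 and 15 counts in the controls. Again M893 and M896 were the highest, followed for Cryba2 by M901. Cryba4 had 37, 14, 18 and 12 counts in the Rbfox2-/- mice and 30, 11, 36 and 16 counts in the controls. Crygs, the gamma crystallin, had 47, 15, 1 and 6 counts in the Rbfox2-/- mice and 28, 0, 36 and 5 counts in the controls. In M894 the count of 0 lies below the floor of 3 counts, which is 0.0170 CPM in that library.

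**Figure D2:**
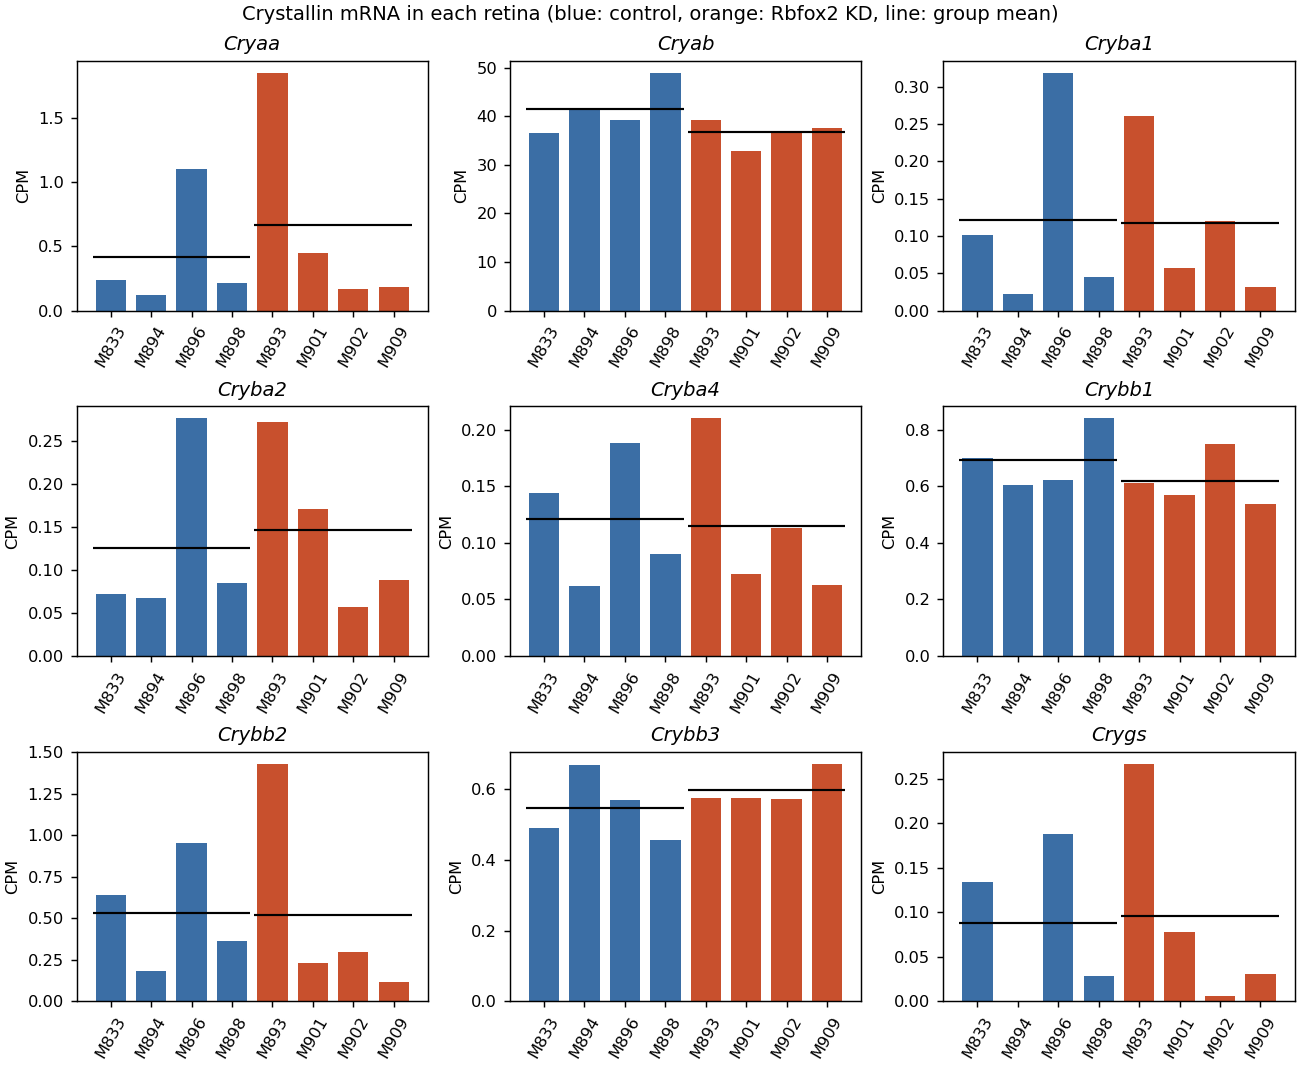
CPM of each crystallin gene (1 panel per gene, each with its own vertical axis from 0) in the 4 control (blue) and 4 Rbfox2-/- (orange) retinas, with a line for the group mean. M893 and M896 hold the 2 highest bars for Cryaa, Cryba1, Cryba2, Cryba4, Crybb2 and Crygs, and the bars of Cryab, Crybb1 and Crybb3 are of similar height in all 8 mice.

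M893 and M896 had the 2 highest CPM values for each of these 6 genes, which were grouped after their values had been seen and are therefore described without a test. The mean CPM of the 2 mice was 6.46 times that of the other 6 for Cryaa, 4.91 times for Crygs, 4.62 times for Cryba1, 3.94 times for Crybb2, 3.05 times for Cryba2 and 2.19 times for Cryba4. The same ratio was 1.01 for Cryab, 0.998 for Crybb3 and 0.925 for Crybb1. Cryba4 and Crybb1, whose promoters are shown above and lie back to back, were thus on different sides of this division. Summed over the 6 genes, 755 counts (4.29 CPM) were found in M893 and 579 counts (3.02 CPM) in M896, and 80 to 276 counts (0.452 to 1.33 CPM) in the other 6 mice.

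The wide spread set the precision of the comparison between the groups. Cryaa had 0.661 ± 0.801 CPM (SD, n = 4) in Rbfox2-/- and 0.416 ± 0.457 CPM (SD, n = 4) in control retinas, with a log2 fold change of 0.66 (SE 0.86, 95% interval -1.26 to 2.58, edgeR FDR 0.781). Without M893 it was -0.64, and without M893 and M896 it was 0.49. The log2 fold change was 0.10 for Crygs (95% interval -2.14 to 2.35), 0.23 for Cryba2 (-1.07 to 1.54), -0.05 for Crybb2 (-1.69 to 1.59), -0.08 for Cryba1 (-1.86 to 1.71) and -0.10 for Cryba4 (-1.13 to 0.94). Without M893 and M896, Crybb2 had -0.90 and Crygs did not pass the count filter. The upper end of the 95% interval was 5.99 times the control level for Cryaa and 5.08 times for Crygs. The biological coefficient of variation of the 6 genes ranged from 40.7% (Cryba4) to 104% (Crygs), where the trend at their abundance was 27.3% to 31.1%.

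Across the 8 mice, the levels of the 6 variable genes moved together, as their grouping by high values in M893 and M896 favours. Of the 36 pairs of crystallin genes, 11 had an adjusted p under 0.05 for Pearson's r of log2(CPM + 1) by the exact permutation test (two-sided, Benjamini-Hochberg over 36 pairs), and 4 did for Spearman's rho. All 11 pairs were among the 6 variable genes, which is no separate evidence for that grouping. Cryba4 and Crybb2 had r = 0.97 and rho = 0.95 (exact permutation, adjusted p = 0.00893 and 0.0205), and without M893 and M896, the mice farthest from the median, r was 0.92. Cryaa and Cryba2 had r = 0.95 (adjusted p = 0.0211 from the exact permutation test) and rho = 0.86 (adjusted p = 0.0771), and r = 0.92 without the same mice. In Cryba1 and Cryba4, r was 0.94 (adjusted p = 0.0211 from the exact permutation test), rho 0.93 (adjusted p = 0.0268), and r without the pair of mice 0.86. Among the 15 pairs of the 6 genes, these had the highest r without M893 and M896. Other relations weakened more, since r of Cryaa with Crybb2 fell from 0.90 to 0.11 and r of Cryaa with Cryba4 from 0.84 to 0.0014 without them. Without M893 and M896, 0 of 36 pairs passed, the pairs named above included, and 0 passed without either mouse alone. With only 6 mice, the smallest p of the exact permutation test is too large for a single pair to pass after adjustment. The count without both mice therefore cannot tell a lost relation from too few mice.

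Over the 15 pairs among the 6 genes, r ranged from 0.72 to 0.97 with all mice and from -0.38 to 0.92 without M893 and M896. In the 21 pairs with Cryab, Crybb1 or Crybb3, it ranged from -0.80 to 0.59. The lowest value was that of Crybb1 with Crybb3, for which r was -0.80 (adjusted p = 0.0557 from the exact permutation test) and rho -0.90 (adjusted p = 0.0411), with r = -0.80 without M898 and M902. After subtraction of the group means, r of this pair was -0.76 and that of the 15 pairs 0.74 to 0.97.

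**Figure D3:**
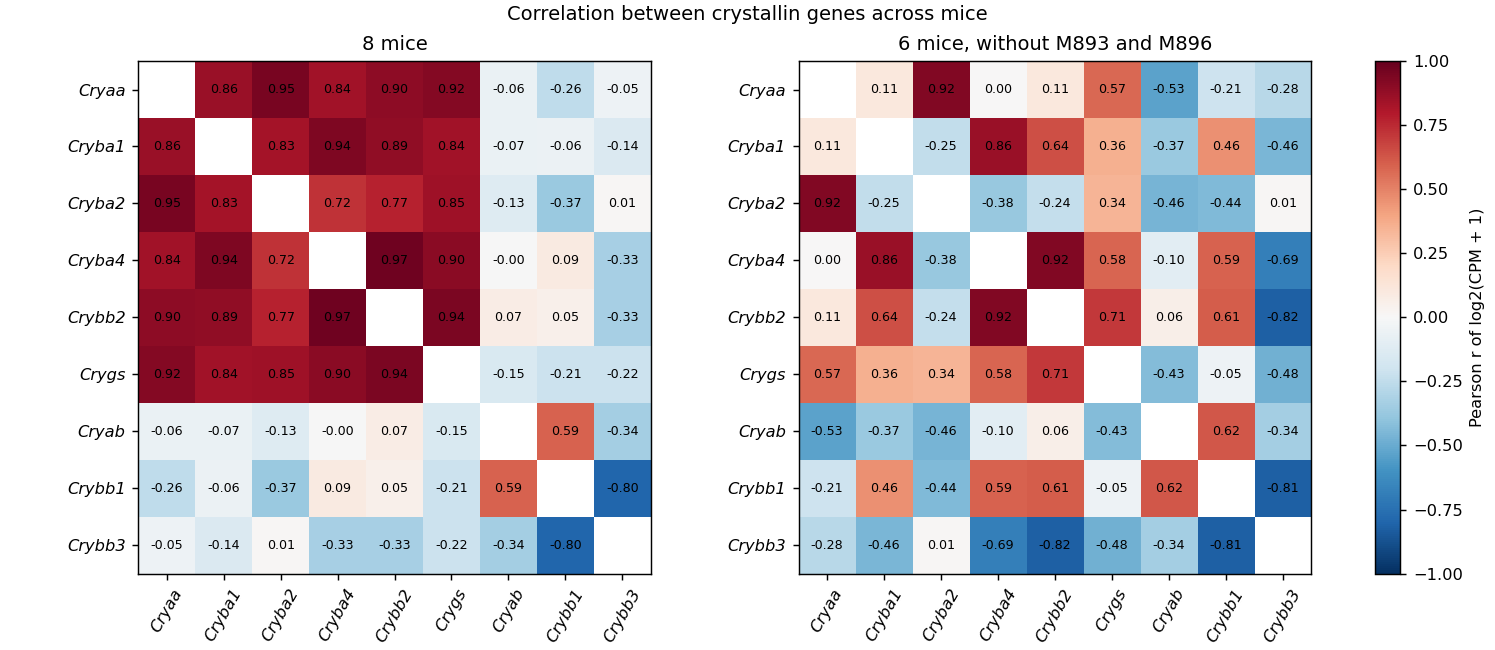
Pearson r of log2(CPM + 1) for each pair of the 9 crystallin genes, over 8 mice on the left and over the 6 mice other than M893 and M896 on the right, from blue (-1) to red (1). The block of the 6 variable genes is red on the left, 0.72 to 0.97, and mixed on the right, -0.38 to 0.92.

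The proportions of the 6 genes were not the same in every retina. Cryaa made up 56.3% of the counts of Cryaa and Crybb2 together in M893 (exact Clopper-Pearson 95% interval 52.2% to 60.4%) and 53.4% in M896 (48.4% to 58.5%). It made up 66.2% in M901 (57.3% to 74.2%), and 26.9% in M833 (20.6% to 34.0%). The intervals cover counting error only, and those of M901 and M833 do not overlap with each other. The share was 61.4% in M909, 39.6% in M894, 37.3% in M898 and 36.5% in M902. The 3 highest shares were thus those of Rbfox2-/- mice, and the fourth Rbfox2-/- mouse, M902, lay within the control range. This difference was not tested.

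Genes of the lens other than crystallins ranged from a few counts per mouse to 10.7 CPM on average (Hsf4). They did not all have their highest values in M893 and M896. Of 15 genes of lens fibres and lens epithelium, 11 were analysed here, and 7 passed the count filter. Mip, the major membrane channel of lens fibres, had 13 counts in M893, 6 in M896 and 0 to 6 in the other mice. Lim2, another lens fibre membrane protein, had 14 counts in M896, 9 in M893 and 5 to 10 in the others. Grifin, a lens galectin, had 40 counts in M896, 25 each in M893 and M898, and 7 to 23 in the other 5 mice. Bfsp2, a lens intermediate filament protein, had its highest count in M898 (295) and its lowest in M901 (42). The groups of Bfsp2 did not overlap, and its log2 fold change was -1.10 (SE 0.37, edgeR FDR 0.273). The summed level of the 11 genes was 16.1 to 19.8 CPM in control and 16.1 to 18.8 CPM in Rbfox2-/- retinas, of which Hsf4 (10.7 CPM on average) and Lenep (5.14 CPM) made up most. Of the 7 genes tested, 0 had an FDR under 0.05, and their median log2 fold change was -0.10. The part of lens material in the crystallin values was not tested.

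**Figure D4:**
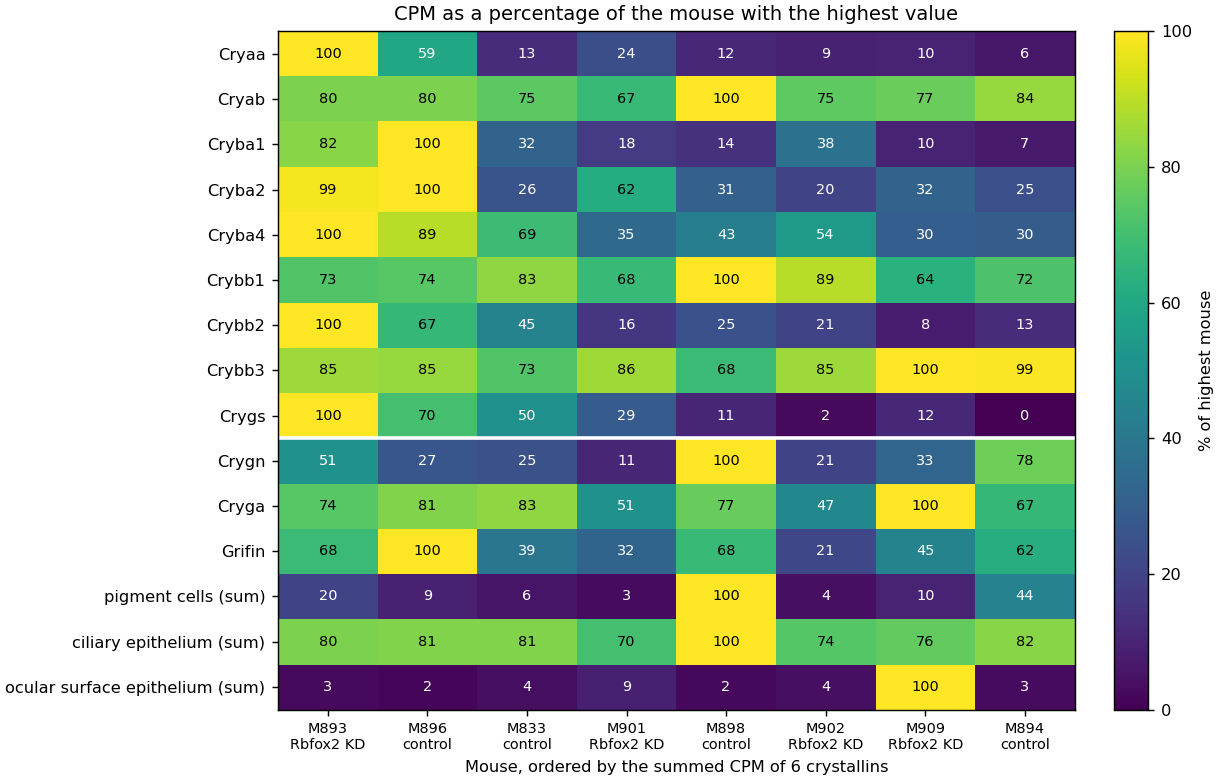
CPM of the 9 crystallin genes (above the white line), of Crygn, Cryga and Grifin, and of the summed pigment cell, ciliary epithelium and ocular surface markers in each mouse, as a percentage of the mouse with the highest value. Mice are ordered by the summed CPM of the 6 variable crystallins, so that M893 and M896 stand on the left, and the pigment cell and ciliary epithelium sums peak in M898 and the ocular surface sum in M909.

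The markers of other neighbouring tissue had their peaks in other mice. M893 and M896 had 76.1 and 34.5 CPM of pigment cell genes, against 372.7 CPM in M898. They had 2.73 and 1.73 CPM of ocular surface genes, against 107 CPM in M909. The sum of 6 ciliary epithelium genes was 216 CPM in M893 and 218 CPM in M896, within the range of 189 to 268 CPM over all mice. Aqp1 made up most of that sum, with 169.5 to 203.7 CPM, while Best2, a channel of the ciliary epithelium, had 4.26 CPM in M893 and 7.12 CPM in M896, against 16.0 CPM in M898 and 0.150 and 0.208 CPM in M901 and M902. The 9 retinal pigment epithelium genes summed to 825 and 834 CPM, within the range of 757 to 1020 CPM. Rlbp1, which Muller glia also express, and Trpm3 made up most of it. Rpe65, the retinoid isomerase of that epithelium, had 9.35 CPM in M893 and 10.1 CPM in M896, within its range of 7.46 to 20.1 CPM.

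Further crystallin-named genes showed other patterns. Of 15 such genes outside the family described above, 7 were analysed here, and 0 of 7 had an FDR under 0.05 (median log2 fold change -0.02). Crygn, a beta-gamma crystallin known in the retina, had 152 counts in M898, 118 in M894, and 44 each in M833 and M896 among controls, and 77, 18, 28 and 54 counts in M893, M901, M902 and M909. Its highest mice were thus M898 and M894, those with the most pigment cell RNA, and not M896. Its log2 fold change was -0.99 (SE 0.55, edgeR FDR 0.471). Cryga, a gamma crystallin of lens fibres, had 12 to 31 counts in every mouse, with the highest value in M909. The enzyme-type crystallins lay closer between mice. Cryl1 had 4.88 ± 0.158 CPM (SD, n = 4) in Rbfox2-/- and 5.81 ± 0.483 CPM (SD, n = 4) in control retinas and did not overlap between the groups, with a log2 fold change of -0.25 (SE 0.077, edgeR FDR 0.243). Cryzl1 had a log2 fold change of 0.14 (edgeR FDR 0.276), and Crym, a thyroid hormone-binding protein, one of 0.09.

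None of the tested factors known to regulate crystallin genes passed the test. Of 22 such genes, 21 were analysed here and 19 were tested, since Sox1 (0 to 19 counts) and Pitx3 (2 to 18 counts) did not pass the count filter. Of the 19, 0 had an FDR under 0.05 and 1 had an unadjusted p under 0.05, against 13.3% of all genes for the latter. That gene was Hsf2, a heat shock factor, with a log2 fold change of 0.16 and an edgeR FDR of 0.273. The log2 fold changes of the 19 ran from -0.15 to 0.16, with a median of 0.0046. Pax6 had 296 ± 13.2 CPM (SD, n = 4) in Rbfox2-/- and 304.6 ± 8.37 CPM (SD, n = 4) in control retinas. In the retina Pax6 is a factor of amacrine and ganglion cells, and Nrl, with 1584 CPM on average, is the rod member of the Maf family.

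Cryaa and Cryab belong to the small heat shock proteins, of which 6 others were tested. Of these, 0 had an FDR under 0.05, 1 was higher and 5 were lower in Rbfox2-/- retinas without passing that threshold, and the median log2 fold change was -0.16. Hspb6 was the most abundant, with 109.7 ± 5.87 CPM (SD, n = 4) in Rbfox2-/- and 109.8 ± 2.08 CPM (SD, n = 4) in control retinas. Hspb2, which shares exon bases with Cryab, had a log2 fold change of -0.70 (SE 0.37, edgeR FDR 0.447), and Hspb3 one of -0.60 (edgeR FDR 0.344). Of 11 genes of the heat shock response, 9 had a positive log2 fold change, 2 an unadjusted p under 0.05 and 0 an FDR under 0.05. Of all 16797 genes tested, 8509 had a positive log2 fold change and 13.3% an unadjusted p under 0.05. Hsph1, a chaperone of the heat shock protein 110 family, had the lowest p, with a log2 fold change of 0.37 (SE 0.11, edgeR FDR 0.231). DESeq2, which called 465 genes in all, gave it an adjusted p of 0.0185.

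The mean profile of the 9 genes over the mice, as log2(CPM + 1) relative to the mean of each gene, was 0.26 in M893, 0.17 in M896 and -0.12 to -0.02 in the other 6. The 6 variable crystallins had r of 0.87 to 0.97 with it, while Cryab had 0.11, Crybb1 -0.04 and Crybb3 -0.22. Each of the 9 genes is part of this mean, and those with the widest spread weigh most in it. These r values are therefore no separate evidence for the grouping. Of all genes tested outside the family, 4 had a Pearson r above 0.9 with this profile over the 8 mice, a number given as a description, since the genes were ranked on it. The highest was Kpnb1, an importin, with r = 0.94 and 222.9 to 235.3 CPM, followed by Gpat2 with r = 0.94 and 0.431 to 1.03 CPM. Tssk4, with r = 0.93, had 23 to 62 counts, and Gabrd, a subunit of the GABA-A receptor, had r = 0.93 and 16.8 to 18.6 CPM. Il17rb, Tfap2c, Celf4, Ifi27, Fut4 and Tbx21 had r between 0.87 and 0.90. Of the 7 lens genes that passed the count filter, none was among these 10, and Grifin had the highest r, 0.64. Mip, Lim2, Lctl and Pitx3 did not pass the filter and were not ranked.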

How the data were processed

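Retinal poly(A) RNA of 4 Rbfox2-/- and 4 control mice was measured, and groups were taken from the genotype labels. The authors aligned reads to mm10 with STAR, kept uniquely mapped reads and deposited fragment counts per gene from HTSeq without normalization. Both a RefSeq and an Ensembl annotation are named for the counting. They also deposited FPKM, used here only to compare genes and as an alternative scale. The authors' adjusted signal (library size made equal) and their own p-values and log2 fold changes were deposited as well, and none of these was used.

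Counts were filtered with filterByExpr (16797 of 17500 genes kept), scaled by TMM factors and compared by quasi-likelihood in edgeR 4.0.16 (R 4.3.3), with p-values adjusted by Benjamini-Hochberg over all genes. Each SE was obtained from the fold change and its F statistic. Correlations between genes used exact permutation of the 8 mice. On simulated counts for this comparison with 200 of 16716 genes changed by a factor of 2, 92.5% were called, with 15 false calls. The changed genes were drawn only from genes with mean counts above those of the 6 variable crystallins. The rate therefore does not apply to these 6. Gene positions are from GENCODE M21. Members and lists were chosen with earlier results of these data known. Named genes are the crystallins, Rbfox2, in each list the 3 with the lowest p and the 2 with the highest mean CPM, and the 10 genes most like the mean crystallin profile. Cryga, Mip, Lim2, Grifin, Lctl, Pitx3, Sox1 and Rpe65 were named after their values were seen. Alternatives were DESeq2 1.42.0, limma-voom (limma 3.58.1), the likelihood ratio test, scaling by upper quartiles, testing every gene, requiring 10 counts in each library, and leaving out mice. The depth was 160630226 to 211283591 counts per mouse. No 2 libraries agreed within sampling noise (chi-square of at least 34.1 per degree of freedom).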

Additional observations from a re-analysis of the deposited data

Results flagged for a closer look

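Each crystallin gene and Rbfox2 was examined in each group of 4 mice for a single outlying mouse. The measure was Dixon's ratio, the distance from that mouse to its neighbour as a share of the full range, against the 95% critical value for 4 samples. Of 20 groups, 5 had such a mouse, where chance would give about 1 (1 in 20) if the groups were independent. They were not, since all come from the same 8 mice and several genes were correlated. No excess over chance can be read from these numbers. Cryaa was high in control M896 (1.10 CPM, gap 0.881 of the range) and in Rbfox2-/- M893 (1.85 CPM, 0.835). Cryba2 was high in control M896 (0.277 CPM, 0.919), and Crybb2 in Rbfox2-/- M893 (1.43 CPM, 0.862). Crybb3 was high in Rbfox2-/- M909, with 0.672 CPM (0.977), while the other Rbfox2-/- mice lay between 0.574 and 0.576 CPM.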

How the results depend on the processing

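Under each alternative, 0 of the crystallin genes with an adjusted p had an FDR under 0.05 (5 of the 9 had one with DESeq2, 6 with at least 10 counts in every library, and 8 without M893 and M896), and the lowest adjusted p of a member was 0.203 (Cryab without M833, where the unadjusted p was 0.0188). Of 140 values of the crystallin log2 fold changes under the alternatives, 119 kept their sign and 21 changed it, 16 of them with a single mouse left out, and none of the 21 was past the threshold on either side. Cryab, Crybb1 and Crybb3 kept their sign in every alternative, with ranges of -0.24 to -0.09, -0.27 to -0.06 and 0.06 to 0.24 with single mice left out. With single mice left out, the log2 fold change ranged from -0.64 to 1.79 for Cryaa, -0.85 to 1.01 for Cryba1, -0.24 to 0.98 for Cryba2, -0.57 to 0.19 for Cryba4, -1.34 to 0.39 for Crybb2 and -1.16 to 0.76 for Crygs, and Cryaa and Cryba2 turned negative without M893. Among the other changes of sign, Cryba1 had 0.11 with limma-voom, 0.23 without M901 and M902, and 0.24 without M893 and M896 (chosen after seeing the data), and without M901 and M902 Cryba4 had 0.15 and Crybb2 0.52. The cause was not tested.

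The number of genes with an FDR under 0.05, 11 with edgeR's quasi-likelihood test, was 465 with DESeq2, 164 with the likelihood ratio test, 1 without M901 and M902, 1 without M893 and M896, and 5 to 35 with single mice left out (35 without M833, 19 without M894, 6 without M898, 5 without M896, M893, M901 or M909). Over the regulator, heat shock and other crystallin lists it was 0, and 1 with DESeq2 (Hsph1). For cell type markers it was 0, with 5 by DESeq2 and 3 by the likelihood ratio test. The number of correlated pairs, 11, was 0 to 12 with single mice left out: 0 without M893 or without M896, 5 without M833 or without M894, and 7 without M901 or without M909. It was 0 without both M893 and M896 and 9 without M901 and M902 (both chosen after seeing the data), and 11 on the FPKM scale and with group means removed. With 2 mice left out, a single pair could not pass unless others had a p as low. No paired analysis was possible because the labels give mouse numbers that no 2 mice share. Counts of 0 to 61 per mouse for Crygs, Cryba1, Cryba2 and Cryba4 add counting error to the spread between mice.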
